A study of Mus musculus with 24 samples.

Results

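The genes described here encode the proteins of the mouse cytosolic ribosome, the particle that translates messenger RNA. They were chosen by symbol: Rpl or Rps, a number and at most 1 further letter (a, l, x or y), plus Rplp0, Rplp1, Rplp2 and Rpsa. Of the 38019 symbols listed for every library, 81 had such a name, and the selection rule left out 1 of them. The remaining 80 genes are 49 of the large subunit and 31 of the small subunit. Of these, 77 reached 1 TPM or more (TPM is a length-scaled share of a library's transcripts) in 3 or more libraries and were tested. Rpl10l, Rpl3l and Rpl39l did not.

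The study asked how limb growth and patterning depend on the minor spliceosome, which removes the small class of minor introns. Stranded total RNA was sequenced from whole forelimb buds (FL) and hindlimb buds (HL) of C57/Bl6 mouse embryos at embryonic stages E11.5 and E10.5. Mutant embryos were U11flx/flx::Prrx1-Cre+ and WT embryos were U11flx/flx::Prrx1-Cre-, so every embryo carried both floxed copies of the gene for U11 small nuclear RNA (Rnu11), which recognises the start of minor introns. Each of the 8 groups, mutant and WT for FL and HL at E11.5 and for FL and HL at E10.5, held 3 libraries. The Prrx1 promoter drives Cre in limb bud mesenchyme, so ectoderm, blood and vessels of a mutant bud keep U11. The number of embryos behind a library was not given in the sources used here, so p-values measure the spread between these libraries.

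Ribosomal proteins are built into the large and the small subunit together with ribosomal RNA, and growing tissue needs them in matched amounts. Their messenger RNAs start with a cytosine and a run of pyrimidines, through which TOR signalling controls their translation. Some have further roles: free Rpl5 and Rpl11 bind MDM2 and so stabilise p53, and loss of 1 copy of genes such as RPS19 causes Diamond-Blackfan anaemia in human. In mouse, mutations of Rpl38 and Rpl24 change the skeleton or the tail. The 77 tested genes include 7 from a list of genes whose mouse mutants have skeletal, limb, tail or skin phenotypes.

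Starts of genes whose levels differed most between stages, and of the Rps27 pair, are shown because they carry the pyrimidine-rich start common to this family or lack the searched motif. The windows run from 30 bases before to 20 bases after the RefSeq start (GRCm38.p6), on the coding strand, with each CTTTC or CCGGAAG in capitals.
Rpl27a, chr7:109519165-109519214, plus strand: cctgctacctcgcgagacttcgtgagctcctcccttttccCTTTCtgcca
Rpl27, chr11:101442215-101442264, plus strand: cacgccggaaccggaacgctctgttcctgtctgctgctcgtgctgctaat
Rpl10, chrX:74270786-74270835, plus strand: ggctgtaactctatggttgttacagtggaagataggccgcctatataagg
Rps15a, chr7:118116128-118116177, minus strand: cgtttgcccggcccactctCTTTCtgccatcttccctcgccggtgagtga
Rps12, chr10:23787190-23787239, minus strand: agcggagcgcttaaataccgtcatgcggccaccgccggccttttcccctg
Rps27, chr3:90213629-90213678, minus strand: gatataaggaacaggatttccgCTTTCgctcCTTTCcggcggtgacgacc
Rps27l, chr9:66946056-66946105, plus strand: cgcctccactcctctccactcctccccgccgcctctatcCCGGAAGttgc

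RefSeq promoters were found for 59 of the 80 genes. Within 50 bases on either side of the start, CTTTC on the coding strand stood in 29 of the 59 (49.2%), against 12.6% of 27025 mouse promoters. CCGGAAG, a motif bound by ETS factors, was searched on both strands and stood in 12 of the 59 (20.3%), against 5.48% of all promoters. Both motifs were picked after the promoters had been seen, their ends can share a base, and a match describes the letters only.

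Rps27 and its paralog Rps27l encode near-copies of 1 small-subunit protein, and human RPS27L is known as a target of p53. Their coding sequences (GRCm38, coding strand) each have 255 bases and differ at 61 of them, shown in capitals, which leaves 76.1% identity.
Rps27, chr3, minus strand: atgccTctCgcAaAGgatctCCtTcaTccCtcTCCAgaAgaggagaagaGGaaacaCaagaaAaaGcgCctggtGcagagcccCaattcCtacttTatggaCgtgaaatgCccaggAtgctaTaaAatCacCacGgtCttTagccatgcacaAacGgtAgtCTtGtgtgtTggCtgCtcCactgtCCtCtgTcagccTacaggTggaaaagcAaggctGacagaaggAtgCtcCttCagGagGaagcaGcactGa
Rps27l, chr9, plus strand: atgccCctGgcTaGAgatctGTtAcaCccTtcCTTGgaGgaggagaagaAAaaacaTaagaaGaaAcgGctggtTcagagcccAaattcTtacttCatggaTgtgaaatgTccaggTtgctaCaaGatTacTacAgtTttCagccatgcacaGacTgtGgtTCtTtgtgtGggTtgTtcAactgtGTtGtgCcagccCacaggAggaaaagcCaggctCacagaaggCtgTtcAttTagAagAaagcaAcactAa

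Reads of ribosomal protein genes can be hard to place, because the mouse genome holds many processed copies of them. Of the 50-base stretches in the transcripts of a member, a median of 37.1% also occurred in a transcript of another annotated gene. The range was 0% to 95.1%, the top value being that of Rpl35. Matches on either strand counted, and the other gene need not be a processed copy. For Rpl35 the gene sharing most was Wdr38 (59.0%). All but 3 of the 80 genes shared at least 1 such stretch, and 27 shared at least 50%. Rpl6l is annotated as a processed pseudogene and shares 76.4%, most often with Rpl6, so its level is uncertain. A further 29 members hold annotated small nucleolar RNAs within the gene, and how the authors counted reads there is not given in the sources used here.

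Levels below are TPM after each library was rescaled to an equal median over genes present in all libraries. The deposited TPM keep no sequencing depth, so the depth behind a level is unknown. The 80 genes took 1.83% to 4.16% of all deposited TPM per library, and 11% to 15.8% of the TPM of nuclear protein-coding genes. Protein-coding genes themselves took only 13.6% to 32.8% of these total-RNA libraries.

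Members stood at very different levels. Rpl41, whose product is the smallest ribosomal protein and bridges both subunits, had the highest mean over the 24 libraries (1845 TPM, range 1423 to 2369). Its whole coding sequence of 78 bases (chr10, minus strand, GRCm38) is shown for its size, 25 codons and a stop.
Rpl41: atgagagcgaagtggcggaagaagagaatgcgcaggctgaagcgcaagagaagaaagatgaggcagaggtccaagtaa
Next came Rplp1, an acidic stalk protein that recruits elongation factors, at a mean of 1022 TPM, and Rpl32 at 1015 TPM. Rps15a averaged 881 TPM and Rpl7 averaged 711 TPM. The lowest means among the tested genes were 41.0 TPM for Rps27, 48.1 TPM for Rps29 and 52.9 TPM for Rpl36a. The mean was at least 100 TPM in 63 members. Neighbours in this order lie close: Rplp1 ranged over libraries across the mean of Rpl32. The mean level and the shared share of 50-base stretches had a Spearman correlation of -0.32 across 77 genes, which are not independent replicates.

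**Figure D1:**
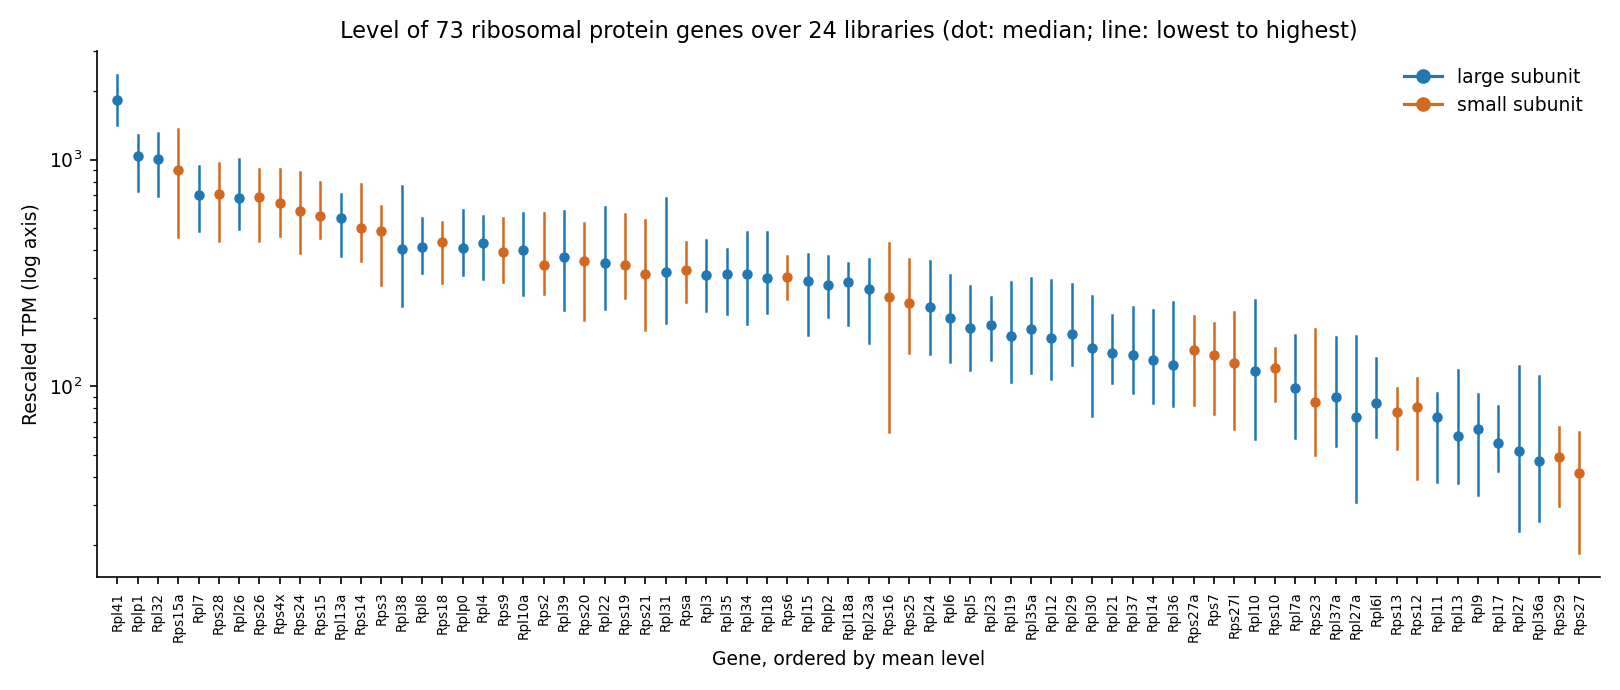
Rescaled TPM (log axis) of 73 of the 77 tested ribosomal protein genes over 24 libraries, ordered by mean level, with a dot at the median and a line from the lowest to the highest library. Rpl41 leads at a mean of 1845 TPM and Rps27 is lowest at 41.0 TPM.

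Rpl10l, Rpl3l and Rpl39l, paralogs known mainly from testis (Rpl10l, Rpl39l) or muscle (Rpl3l), stayed below 1 TPM in every library. Rpl10l was above 0 in 3 of 24 libraries, with a highest value of 0.148 TPM. Rpl3l was above 0 in 7 libraries (highest 0.109 TPM), and Rpl39l was above 0 in 10 libraries (highest 0.28 TPM). Of the 5 members listed as paralogs, the other 2, Rps27l and Rpl22, passed the filter.

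Levels were spread over libraries to different degrees. The highest library had 6.76 times the lowest for Rps16 and 1.67 times for Rpl41. The ribosomal protein genes largely moved together from library to library within a group. The median within-group SD was 0.238 (log2), and 0.142 after the median of the members in each library had been taken out. In 16 of the 24 libraries, more than 60 or fewer than 17 of the 77 genes lay above their group mean. At E10.5 that number was 74 in FL mutant replicate 3 and 1 in FL mutant replicate 2. At E11.5 it was 76 in HL WT replicate 1 and 3 in HL WT replicate 2. Over libraries, the median log2 level of the members ran from 7.78 to 8.45, with a pooled within-group SD of 0.193. In 6 of 8 groups the library with the highest median had the lowest share of protein-coding TPM, and the part of this in the levels was not tested.

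**Figure D2:**
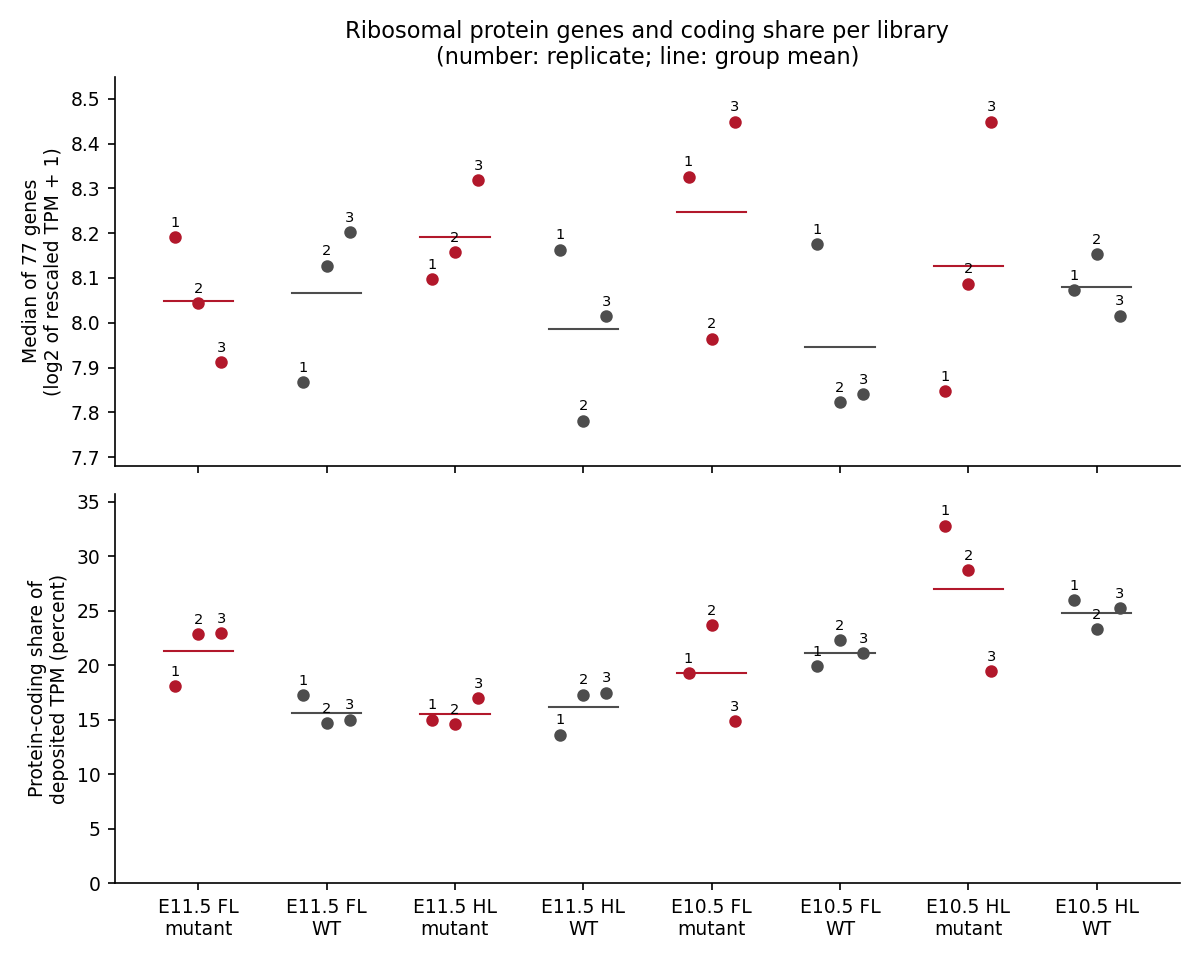
Top, median of the 77 tested genes in each library, log2(rescaled TPM + 1), by group; bottom, protein-coding share of the deposited TPM in percent; numbers mark replicates and lines group means (n = 3). The medians run from 7.78 to 8.45 and those of mutant and WT libraries overlap in each limb and stage, while the coding share runs from 13.6% to 32.8%.

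The targeted RNA was lower in mutant buds, with an exception at E10.5 in FL. Rnu11 averaged 175 ± 54.5 TPM in E11.5 FL mutant and 1295 ± 45.8 TPM in E11.5 FL WT, and 390 ± 46.3 TPM in E11.5 HL mutant against 1544 ± 586 TPM in E11.5 HL WT (SD, n = 3 each). It averaged 203 ± 55.9 TPM in E10.5 HL mutant and 565 ± 145 TPM in E10.5 HL WT. At E10.5 in FL the groups overlapped, since the library labelled mutant replicate 3 had 482 TPM and the library labelled WT replicate 1 had 251 TPM. The library labelled mutant replicate 3 also held hindlimb transcripts, with Pitx1 at 1.53 TPM and Hoxc10 at 3.91 TPM. For mutant comparisons and interactions that rest on this pair, medians over the members are also given without both libraries, an alternative chosen after seeing the data. The WT FL stage comparison rests on WT replicate 1 of the pair, and is given without it only as call counts and a range of medians. Limb mesenchyme markers were present throughout, with their 12 genes summing to 139 to 307 TPM. A bulk measurement cannot tell fewer cells of a type from less RNA per cell.

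No ribosomal protein gene passed an adjusted p of 0.05 between mutant and WT buds in either limb at either stage. The median log2 difference (mutant minus WT) over the 77 genes was -0.07 in FL at E11.5, 0.18 in HL at E11.5, 0.25 in FL at E10.5 and 0.05 in HL at E10.5. Over all genes tested the medians were -0.02, -0.03, 0.02 and 0.01 in the same order. Each comparison used limma on log2(rescaled TPM + 1), with Benjamini-Hochberg adjustment over all genes tested, and differences are on that scale throughout.

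In E11.5 FL, where 1.74% of all genes were called (194 of 11126), the members ranged from -0.35 to 0.23. The median was 0.01 when the scale was the sum over protein-coding genes, and 0.44 on the deposited scale, on which all genes together shifted by 0.39 and 32 members were called higher and 0 lower. On the rescaled values 24 members were positive and 53 negative, and 1 had an unadjusted p under 0.05. Rpl8, which lines the peptidyl transferase centre, had 400, 425 and 392 TPM in mutant FL and 316, 355 and 371 TPM in WT FL. Every mutant value was above every WT value, and the log2 difference was 0.23 ± 0.10 (SE; limma adjusted p = 0.198). Mutant libraries lay wholly above WT for 1 member, Rpl8, against 11.1% of all genes, and wholly below for 3, Rps16, Rps29 and Rps7, against 13.7%.

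In E11.5 HL all 77 members were positive, from 0.00 to 0.46, and none was called, where 0.018% of all genes were. On the deposited scale 71 were positive, with a median of 0.09. Unadjusted p-values under 0.05 were reached by 2 members, both positive. Rps16 had 251, 285 and 257 TPM in mutant HL and 209, 215 and 244 TPM in WT HL (log2 difference 0.26 ± 0.10). Rpl3, a protein near the peptidyl transferase centre, had 382, 443 and 414 TPM in mutant HL and 414, 284 and 314 TPM in WT HL (0.32 ± 0.14). Both had a limma adjusted p of 0.754, and the groups were apart for Rps16 and overlapped for Rpl3. Mutant libraries were wholly above WT for 10 members (Rpl15, Rpl23a, Rpl27a, Rpl35, Rpl36, Rpl36a, Rpl39, Rps16, Rps20 and Rps26) against 3.19% of all genes. They were wholly below WT for 0 members, against 8.4% of all genes. The members largely moved together from library to library, so neither these 10 nor the 77 of 1 sign are separate observations. The library medians of the members averaged 8.19 ± 0.11 in mutant HL and 7.99 ± 0.19 in WT HL (SD, n = 3 each, log2). The libraries of both groups overlapped in this median, and the difference of the means was about the WT SD. Of 8 surface ectoderm markers 7 were positive and none called, none was at 0 in a group, and they summed to 74.0 to 81.7 TPM in mutant HL and 44.5 to 73.4 TPM in WT HL, and their part in the members' levels was not tested.

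In E10.5 FL 75 members were positive and 2 negative, from -0.25 to 1.03, with 0.0251% of all genes called. The median was 0.04 on the deposited scale, where all genes shifted by -0.14. Rpl24, whose partial deletion gives the belly spot and tail mouse, had 339, 253 and 357 TPM in mutant FL and 230, 174 and 179 TPM in WT FL (0.70 ± 0.21, limma adjusted p = 0.829). An unadjusted p under 0.05 was reached by 8 members, all positive. The top value, 1.03 for Rps16, came with a WT library (replicate 1) at 63.3 TPM, against 266 and 302 TPM in the other WT libraries. Mutant libraries were wholly above WT for 7 members (among them Rpl24, Rpl38, Rpl41, Rps14, Rps27l and Rps28), against 5.37% of all genes, and wholly below for 0, against 4.97%.

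Without the E10.5 FL libraries labelled mutant replicate 3 and WT replicate 1, 67 members were positive with a median of 0.31, Rpl24 differed by 0.72, and no member was called. With 2 libraries left in each group, mutants lay wholly above WT for 49 members, against 18.8% of all genes, and wholly below for 0, against 21.03%. The members largely moved together from library to library, so the 49 are not separate observations. Their median log2 level was 8.33 and 7.96 in the kept mutant libraries and 7.82 and 7.84 in the kept WT libraries. It was 8.45 in the mutant library left out and 8.18 in the WT library left out. Erythroid markers moved with the comparison that kept all 3 libraries of each group. All 10 tested of 12 listed were positive, with a median of 0.73 and none called, and the 12 summed to 4534 to 5517 TPM in mutant FL and 2068 to 2911 TPM in WT FL. Limb mesenchyme markers, also over all 3 libraries, summed to 139 to 209 TPM in mutant FL and 205 to 266 TPM in WT FL. Of these 12, 2 were positive, the hindlimb genes Tbx4 and Pitx1. Mutant replicate 3, part of these values, had Tbx4 at 1.68 TPM, against 0.271 and 0.232 TPM in the other mutant libraries. Its Prrx1 was 21.7 TPM, against 38.5 and 41.8 TPM. Neither list had a gene at 0 in a whole group, and their part in the members' levels was not tested.

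In E10.5 HL 58 members were positive and 19 negative, from -0.17 to 0.27, none with an unadjusted p under 0.05, and 0.00836% of all genes were called. The smallest p-values were those of Rplp2, the partner of Rplp1 in the stalk (0.27 ± 0.24), and Rps19 (0.21 ± 0.22), both with a limma adjusted p of 1. Mutant and WT libraries overlapped for every member, where 2.43% of all genes lay wholly above WT in mutants and 3.41% wholly below. Myogenic markers summed to 3.64 to 4.14 TPM in mutant HL and 5.37 to 8.74 TPM in WT HL, with Myod1 undetected in mutant HL. Neural markers summed to 1.91 to 2.45 TPM and 2.99 to 4.20 TPM. Limb mesenchyme, erythroid, endothelial, surface ectoderm and myeloid sums overlapped. No tested marker was called, and their part in the members' levels was not tested.

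**Figure D3:**
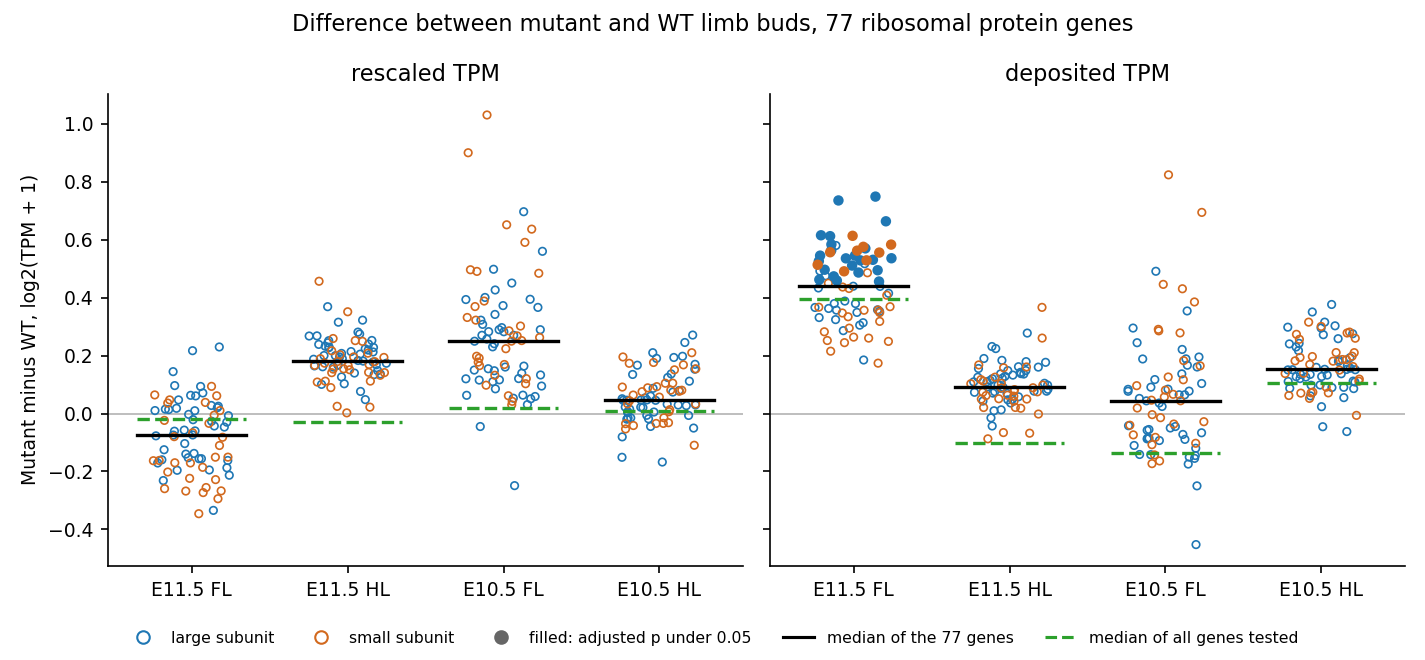
Mutant minus WT, log2(TPM + 1), of each of the 77 tested genes by limb and stage, on rescaled TPM (left) and deposited TPM (right), with subunits in separate colours, filled points for called genes, black lines for the members' median and dashed lines for that of all genes. On rescaled TPM none was called and the medians are -0.07 and 0.18 at E11.5 (FL, HL) and 0.25 and 0.05 at E10.5 (FL, HL); on deposited TPM 32 were called in E11.5 FL.

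In the mutant comparisons the subunit medians lay close together. The large- and small-subunit medians were -0.04 and -0.15 in FL at E11.5, 0.20 and 0.17 in HL at E11.5, 0.24 and 0.26 in FL at E10.5, and 0.05 and 0.08 in HL at E10.5. Without the pair of E10.5 FL libraries that stand apart, the FL medians at E10.5 were 0.25 and 0.36. The 7 genes with skeletal, limb, tail or skin phenotypes in mouse, among them Rpl38 and Rpl24, had medians of -0.16 (0 positive) in E11.5 FL and 0.21 (7 positive) in E11.5 HL. At E10.5 their medians were 0.50 (7 positive) in FL, 0.45 (7 positive) in FL without that pair, and 0.12 (6 positive) in HL. Rpl38, needed for axial patterning in mouse, had 351, 255 and 258 TPM in E11.5 FL mutant and 244, 362 and 365 TPM in E11.5 FL WT, so the groups overlapped. The 19 genes linked to Diamond-Blackfan anaemia in human had medians of -0.10 and 0.20 at E11.5 and 0.19 and 0.03 at E10.5 (FL, HL). For the 13 genes that bind MDM2 or belong with Rpl5 and Rpl11, these medians were -0.15, 0.19, 0.27 and 0.05. Without that pair, the FL medians of these lists at E10.5 were 0.23 and 0.34.

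Genes around the ribosome were read from the same fits. In E11.5 FL, 26 of 27 ribosome assembly factors were positive with a median of 0.25, and 0 were called. Bop1, which processes large-subunit ribosomal RNA, came nearest (0.50, limma adjusted p = 0.059). Of 14 genes of RNA polymerase I and its factors 8 were positive there, and Rrn3, its initiation factor, was nearest to a call (0.35, limma adjusted p = 0.055). Of 11 MYC and TOR regulators 1 was called, Myc, a transcription factor that drives ribosome production (0.58 ± 0.12, limma adjusted p = 0.041). Of the 15 other listed genes with pyrimidine tracts, many of them for translation but also the non-coding Gas5, 11 were positive, with a median of 0.07.

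Of 12 p53 targets, 7 were called higher in E11.5 FL mutants, where 53 of 11126 genes were (Eda2r, Ccng1, Aen, Bax, Cdkn1a, Phlda3 and Sesn2), with a median of 0.78. Eda2r, a receptor, differed by 2.03 ± 0.17, Ccng1, a cyclin, by 1.63 ± 0.20 and Aen, a nuclease, by 0.92 ± 0.12. Markers of other cells moved in the same comparison, in both directions. All 5 tested of 6 myogenic markers were positive, with Lbx1 called (0.52, limma adjusted p = 0.0192), and the 6 summed to 9.88 to 11.9 TPM in mutant FL and 6.35 to 6.73 TPM in WT FL. All 8 endothelial markers were positive with 0 called, summing to 21.8 to 29.0 TPM in mutant FL and 17.3 to 19.6 TPM in WT FL. The surface ectoderm sum went the other way, at 48.8 to 62.3 TPM in mutant FL and 65.9 to 89.6 TPM in WT FL. So did the neural sum, at 2.95 to 3.58 TPM in mutant FL and 3.61 to 4.12 TPM in WT FL. Erythroid and myeloid sums overlapped between the groups. Of 12 limb mesenchyme markers 1 was called, Pdgfra (-0.40, limma adjusted p = 0.0411), and they summed to 241 to 285 TPM in mutant FL and 266 to 285 TPM in WT FL. None of these markers was at 0 in a whole group, and their part in the result was not tested. Rps27l had 131, 88.5 and 97.3 TPM in mutant FL and 80.5, 132 and 96.9 TPM in WT FL. Its groups overlapped (0.05 ± 0.24, limma adjusted p = 0.928).

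Whether the mutant effect differed between limbs or stages was tested as an interaction, and no member was called in any of the 4. Those tests share libraries with the comparisons above. The HL effect minus the FL effect had a member median of 0.27 at E11.5 (74 positive, 3 negative, 5 with an unadjusted p under 0.05), and 0.00899% of all genes were called. Rps7, which binds MDM2, differed by 0.46 ± 0.19 (limma adjusted p = 0.351) and Rps16 by 0.41 ± 0.14 (limma adjusted p = 0.335), and on the deposited scale both signs turned, to -0.15 and -0.20. At E10.5 the median was -0.18 (9 positive, 68 negative, 2 with an unadjusted p under 0.05) and 0.0% of all genes were called, with Rpl24 at -0.71 ± 0.29 (limma adjusted p = 1). Without the pair of E10.5 FL libraries that stand apart the median was -0.23 (11 positive, 66 negative) and Rpl24 differed by -0.74.

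The E11.5 effect minus the E10.5 effect had a median of -0.31 in FL (7 positive, 70 negative, 13 with an unadjusted p under 0.05), and 0.0645% of all genes were called. Rpl24 differed by -0.93 ± 0.27 (limma adjusted p = 0.218). Without that pair the median was -0.41 (7 positive, 70 negative). In HL the median was 0.13 (72 positive, 5 negative, 0 with an unadjusted p under 0.05) and 0.00807% of all genes were called, with Rpl3 at 0.31 ± 0.22. On the deposited scale the medians of the 4 interactions were of the opposite sign: -0.33 and 0.13 between limbs (E11.5, E10.5), and 0.41 and -0.07 between stages (FL, HL).

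Stage separated many members in WT buds, in both directions. In HL 11 genes were higher at E11.5 than at E10.5 and 32 were lower, where 23.0% of all genes were higher and 17.9% lower. In FL 25 were higher and 19 lower, against 22.4% and 16.4%. The member medians were -0.23 in HL and 0.00 in FL, against 0.06 over all genes in each. On the deposited scale, where all genes shifted by -0.42 in HL and -0.27 in FL, 0 were higher and 46 lower in HL, and 1 was higher and 35 were lower in FL. Reads of the E10.5 libraries alone were trimmed by 3 bases, per the labels, so stage and trimming cannot be told apart.

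Both subunits held genes of either direction. In HL 25 of 46 large-subunit genes were lower and 5 higher (median -0.53), and 7 of 31 small-subunit genes were lower and 6 higher (median 0.10). In FL 16 large-subunit genes were lower and 10 higher (median -0.30), while 3 small-subunit genes were lower and 15 higher (median 0.39). Genes lower in both limbs numbered 18 (15 large, 3 small), which is 56.2% of those lower in HL and 94.7% of those lower in FL. Those higher in both limbs numbered 10 (4 large, 6 small), 90.9% of the HL list and 40.0% of the FL list. No gene was called in opposite directions. The 28 genes called in both limbs had the same sign between the mutant libraries of both limbs, which share the scale, the trimming and the fitted spread with those calls. The stage differences of WT HL and WT FL had a Pearson correlation of 0.93 across the 77 genes, where the limbs share scale and trimming and genes are not independent replicates. The overlap of calls, its shares and this correlation include the doubted E10.5 FL WT replicate 1 and are given only with it.

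**Figure D4:**
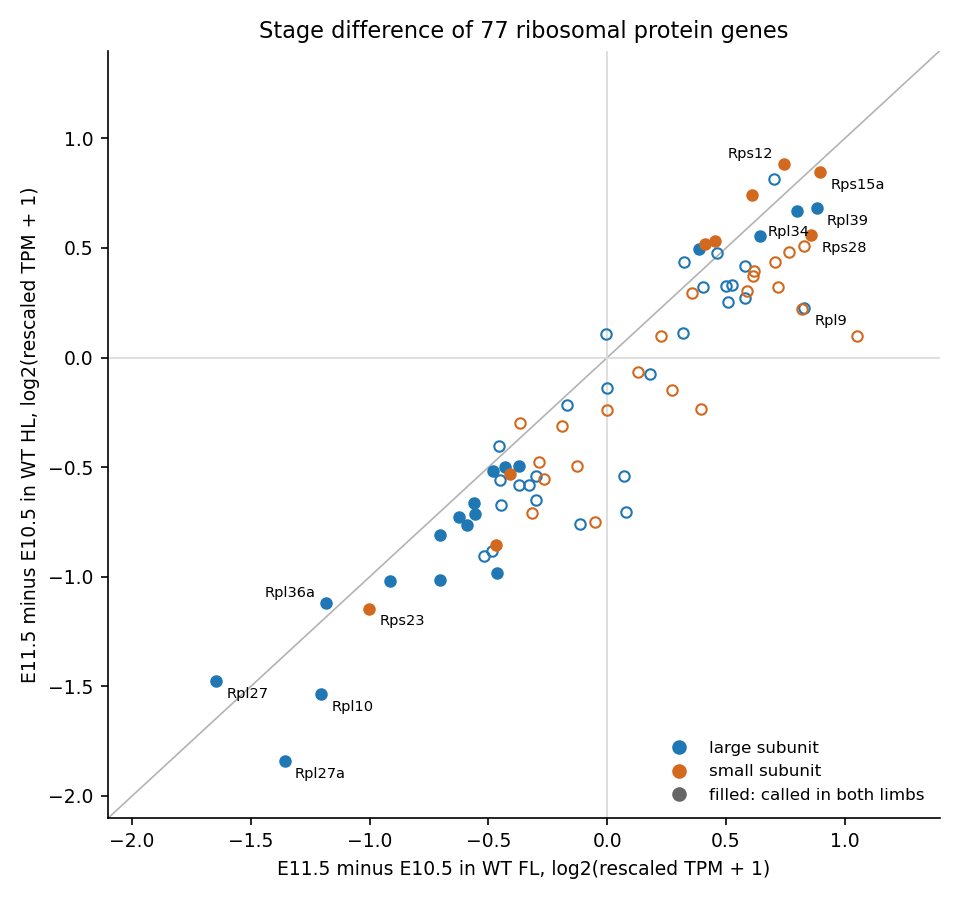
Log2 difference, E11.5 minus E10.5, in WT HL against WT FL for the 77 tested genes, with those called in both limbs marked. Rpl27a, Rpl27 and Rpl10 lie lowest, between -1.84 and -1.48 in HL.

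The deepest falls were in 3 large-subunit genes. Rpl27a (chr7:109519147-109522367, plus strand) had 42.1, 31.1 and 39.3 TPM in E11.5 HL WT and 142, 165 and 107 TPM in E10.5 HL WT, a log2 difference of -1.84 ± 0.21 (limma adjusted p = 6.82e-06). In FL it had 33.8, 53.5 and 47.0 TPM at E11.5 and 167, 95.4 and 93.8 TPM at E10.5 (-1.36 ± 0.21, limma adjusted p = 0.00015). Every E11.5 library lay below every E10.5 library.

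Rpl10 (chrX:74270812-74273135, plus strand), a late-joining protein of the large subunit, had 89.5, 62.1 and 58.7 TPM in E11.5 HL WT and 216, 241 and 157 TPM in E10.5 HL WT (-1.54 ± 0.22, limma adjusted p = 6.43e-05). In FL it had 67.3, 95.0 and 60.8 TPM at E11.5 and 151, 196 and 165 TPM at E10.5 (-1.21 ± 0.22, limma adjusted p = 0.000577). Again the stages were apart in both limbs. Rpl27 (chr11:101442298-101445529, plus strand in GENCODE M21) had 33.0, 23.1 and 28.5 TPM in E11.5 HL WT and 75.4, 104 and 64.2 TPM in E10.5 HL WT (-1.48 ± 0.20, limma adjusted p = 4.05e-05). In FL it had 23.1, 37.4 and 32.9 TPM at E11.5 and 99.1, 123 and 77.2 TPM at E10.5 (-1.65 ± 0.20, limma adjusted p = 2.2e-05). Of its 50-base stretches 38.8% occur elsewhere, against 73.7% for Rpl10 and 35.9% for Rpl27a.

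Rps23, which sits at the decoding centre, and Rpl36a completed the 5 deepest falls in each limb. Rps23 ranged from 49.7 to 71.9 TPM over the 12 E11.5 libraries and from 99.3 to 180 TPM over the 12 E10.5 libraries. Its log2 differences were -1.15 ± 0.20 in HL (limma adjusted p = 0.000305) and -1.0 ± 0.20 in FL (limma adjusted p = 0.00103). Rpl36a ranged from 25.6 to 37.3 TPM at E11.5 and from 56.5 to 111 TPM at E10.5, with -1.12 ± 0.23 in HL (limma adjusted p = 0.00107) and -1.18 ± 0.23 in FL (limma adjusted p = 0.000864). Of the 50-base stretches of Rps23 51.7% occur elsewhere, and of those of Rpl36a 85.5% do.

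The genes that were higher at E11.5 moved less. Rps15a (chr7:118104372-118116188, minus strand), linked to Diamond-Blackfan anaemia in human, had 1215, 940 and 1129 TPM in E11.5 HL WT and 674, 664 and 496 TPM in E10.5 HL WT (0.84 ± 0.23, limma adjusted p = 0.00662). In FL it had 957, 1276 and 1242 TPM at E11.5 and 890, 541 and 487 TPM at E10.5 (0.90 ± 0.23, limma adjusted p = 0.00515). It was the single member with all 12 E11.5 libraries above all 12 E10.5 libraries (904 to 1367 against 454 to 890 TPM), a pattern of 4.77% of all genes. Of its 6023 50-base stretches, pooled over all its protein-coding transcripts, 327 (5.43%) occur elsewhere, in 64 other genes. The long total lowers this share, and where in the transcripts the shared stretches lie was not examined, so its reads can still be hard to place.

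Rps12 (chr10:23785183-23787275, minus strand) had 94.9, 82.6 and 85.0 TPM in E11.5 HL WT and 44.6, 51.6 and 44.7 TPM in E10.5 HL WT (0.88 ± 0.23, limma adjusted p = 0.00457). In FL it had 79.4, 106 and 95.4 TPM at E11.5, against 96.0, 44.4 and 39.1 TPM at E10.5, where replicate 1 stood among the E11.5 values. Of the 50-base stretches of Rps12 64.9% occur elsewhere. Rpl39, which lines the exit tunnel for new proteins, had 498, 361 and 446 TPM in E11.5 HL WT and 268, 259 and 277 TPM in E10.5 HL WT (0.68 ± 0.24, limma adjusted p = 0.0321). In FL it differed by 0.88 ± 0.24 (limma adjusted p = 0.00863). Also named by size was Rpl34 in HL (0.67 ± 0.19, limma adjusted p = 0.00812). In FL the rule also named Rps28 (0.86 ± 0.17, limma adjusted p = 0.00107) and Rpl9 (0.83 ± 0.21, limma adjusted p = 0.00591).

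Over all 24 libraries, mutant and WT, 15 members had every E11.5 value below every E10.5 value, a pattern of 6.69% of all genes. They were Rpl27a, Rpl10, Rpl27, Rps23, Rpl36a, Rpl7a, Rpl19, Rpl14, Rps2, Rpl5, Rpl31, Rpl37a, Rpl4, Rpl10a and Rpsa. The ranges lay close for Rpsa, the laminin-receptor-like protein, with 235 to 322 TPM at E11.5 and 332 to 435 TPM at E10.5. Rpl5, the MDM2-binding protein, had 118 to 169 TPM at E11.5 and 191 to 277 TPM at E10.5.

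**Figure D5:**
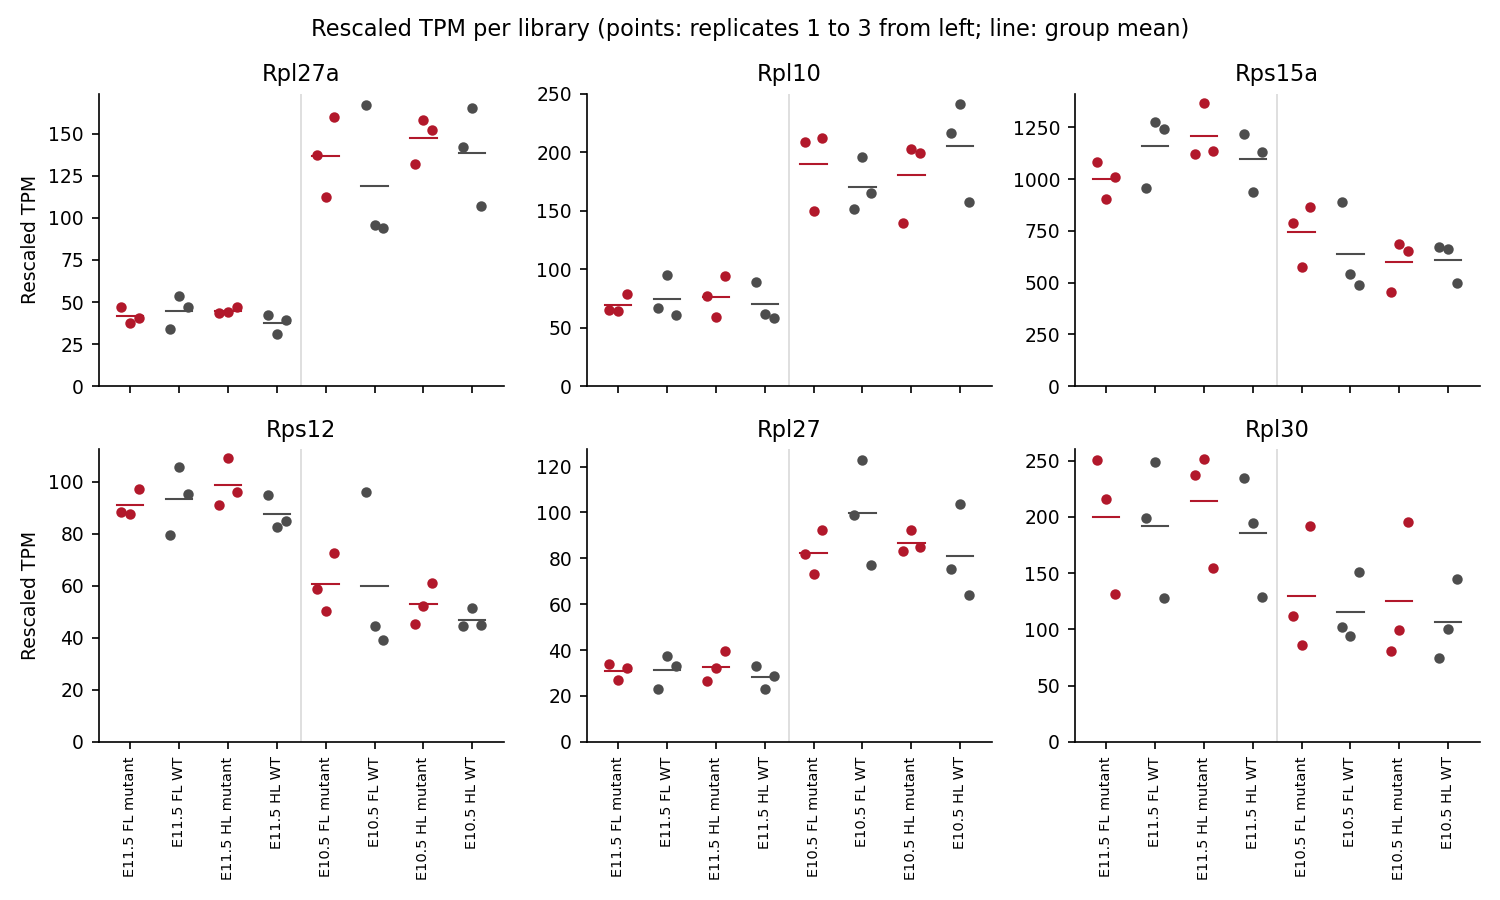
Rescaled TPM in each library for 5 genes named in the stage comparison and for Rpl30, with E11.5 left of E10.5, mutant (red) left of WT (grey), points for replicates 1 to 3 and lines for group means. For Rpl27a the 12 E11.5 values lie between 31.1 and 53.5 TPM and the 12 E10.5 values between 93.8 and 167 TPM.

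The differences of the paralogs Rps27 and Rps27l had opposite signs, with Rps27 past the threshold in FL and Rps27l in HL, and the limbs were not tested against each other for stage. Rps27 ranged from 38.1 to 62.9 TPM at E11.5 and from 18.4 to 58.1 TPM at E10.5, with a WT difference of 0.51 in HL (limma adjusted p = 0.192) and 0.83 in FL (limma adjusted p = 0.0382). Rps27l ranged from 64.9 to 148 TPM at E11.5 and from 111 to 212 TPM at E10.5, with -0.71 ± 0.24 in HL (limma adjusted p = 0.0246) and -0.32 in FL (limma adjusted p = 0.31). Within a library Rps27l stood at a median of 2.08 times Rps27 at E11.5 (1.54 to 3.90, 12 libraries) and 5.04 times at E10.5 (2.45 to 6.13, 12 libraries). The ranges overlap, and this ratio does not depend on the scale of the library. It can still depend on how reads were placed. Of the 50-base stretches of Rps27 46.2% occur elsewhere, all of these also in Rps27rt, against 16.2% for Rps27l. Rps27 had the lowest mean of the tested genes, and stage goes with trimming. The part of these in the ratio was not tested.

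What set the falling and rising genes apart was looked for in their annotation. The 18 genes lower in both limbs had a RefSeq promoter in 16 cases, 9 of them with CTTTC and 2 with CCGGAAG. The 10 higher in both limbs had one in 7 cases, 3 with CTTTC and 1 with CCGGAAG. Across the 77 genes the stage difference had a Pearson correlation with the shared share of 50-base stretches of -0.10 in HL and -0.07 in FL, and with exon length of 0.10 in HL and 0.06 in FL. These are descriptions across genes, not replicates.

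The lists around the ribosome are set against the 17.9% of all genes lower in HL and the 16.4% lower in FL. Of 27 ribosome assembly factors 14 were lower and 2 higher in HL (median -0.46), and 12 lower and 2 higher in FL (median -0.35). Nop2 differed by -1.08 in HL and -0.80 in FL and Nop56 by -1.05 and -0.80, while Ncl, encoding nucleolin, was higher by 0.62 in both. Of 14 genes of RNA polymerase I 8 were lower in HL and 5 in FL, with 0 higher in either. Of the 15 other listed pyrimidine-tract genes 7 were lower in each limb, and 2 were higher in HL and 3 in FL. Myc differed by -1.01 in HL and -0.62 in FL. Ribosomal protein genes with names outside the symbol rule gave 3 lower and 1 higher of 8 in HL and 1 each way in FL, with Rps3a1 at 0.76 in HL and 0.98 in FL.

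Between limbs, no member was called in WT buds, where 0.144% of all genes were called at E11.5 and 0.092% at E10.5. These contrasts share their WT libraries with those above. At E11.5 the median (HL minus FL) was -0.09, with 6 positive, 71 negative and 0 at an unadjusted p under 0.05, and on the deposited scale 35 were positive. Rpl13 differed by -0.31 ± 0.15 (limma adjusted p = 0.718) and Rps21 by -0.35 ± 0.21 (limma adjusted p = 0.764). At E10.5 the median was 0.08, with 57 positive, 20 negative and 3 at an unadjusted p under 0.05, and it was 0.35 on the deposited scale and 0.22 without FL WT replicate 1. Rpl24 differed by 0.56 ± 0.21 (limma adjusted p = 0.414).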

How the data were processed

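The deposited files give TPM per gene symbol for each of the 24 libraries, made by the authors from stranded total RNA. HISAT2 and mm10 are named in the submitters' processing notes, and the labels state that E10.5 reads were trimmed. The quantifier, annotation and depth were not given in the sources used here. TPM keeps no depth, so counting error is unknown. Each library was rescaled so that its median log2 TPM, over genes of 5 TPM or more throughout the fit, was equal (3949 genes at E11.5, 4168 at E10.5, 3518 over all). Printed levels use the scale of all 24 libraries. Genes reaching 1 TPM in 3 or more libraries were tested by limma 3.58.1 in R 4.3.3 (two-sided, trend, log2 of rescaled TPM plus 1, Benjamini-Hochberg over all genes, threshold 0.05). Mutant and limb comparisons were fitted on 12 libraries per stage, leaving 8 residual degrees of freedom, and those across stages on all 24, leaving 16. The fit was tested on simulated data. Other settings were a pseudocount of 0.1, no filter, the deposited scale, protein-coding genes only, a replicate block, fewer libraries and leaving out each library.

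Named in each comparison were the members called (the 5 largest each way where more than 10 were), or else the 2 with the smallest p, plus the 5 highest and 3 lowest means. For the other lists, up to 3 genes were taken by adjusted p in the mutant comparisons. Rpl5, Rpl38, Rpsa and the Rps27 pair were named for their roles or their ranges after values were seen. The members and all lists were chosen with earlier results of these data known. Coordinates are from GENCODE M21 (GRCm38) and RefSeq (GRCm38.p6). Some members counted in the totals, including some that this rule names, are not reported here by name.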

Additional observations from a re-analysis of the deposited data

How the results depend on the processing

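Depth is unknown, shared sequence can blur any member, and stage goes with trimming. No member was called in a mutant, limb or interaction comparison under any setting run, except in E11.5 FL on the deposited scale. That scale gave member medians of 0.044 (E10.5 FL), 0.44 (E11.5 FL, 32 called, Rpl8 among them at 0.75), 0.35 (WT limbs at E10.5), -0.48 (stage FL, 1 higher, 35 lower) and -0.88 (stage HL, 0 higher, 46 lower). It gave interactions of 0.13 and -0.33 between limbs (E10.5, E11.5) and 0.41 and -0.067 between stages (FL, HL). It turned the sign of Rps16 (-0.20) and Rps7 (-0.15) between limbs at E11.5, and the cause was not tested. Leaving out 1 library, the mutant medians ran from -0.18 to 0.00 (E11.5 FL), 0.08 to 0.27 (E11.5 HL), 0.11 to 0.42 (E10.5 FL) and -0.07 to 0.18 (E10.5 HL), and those of HL minus FL from -0.22 to 0.00 (WT E11.5) and 0.01 to 0.22 (WT E10.5). The interactions ran from 0.17 to 0.40 and -0.34 to -0.05 between limbs (E11.5, E10.5), and from -0.49 to -0.21 and 0.03 to 0.25 between stages (FL, HL). Signs turned in E11.5 FL without WT replicate 2 (0.0025), in WT limbs at E11.5 without HL replicate 2 (0.0049) and in E10.5 HL without WT replicate 3 (-0.0043) or mutant replicate 3 (-0.07). Stage medians ran from -0.36 to -0.12 in HL and from -0.08 to 0.17 in FL. Stage calls ran from 6 to 11 higher and 19 to 32 lower in HL, and from 11 to 27 higher and 9 to 19 lower in FL. In FL, lower calls dropped to 11 without E10.5 WT replicate 1 and 9 without E11.5 WT replicate 1, and higher calls to 11 without E10.5 WT replicate 2, 13 without its replicate 3, 11 without E11.5 WT replicate 2 and 16 without its replicate 3. In HL, higher calls dropped to 6 without E10.5 WT replicate 1 and 7 without E11.5 WT replicate 1, and lower calls to 19 without E11.5 WT replicate 2. A fit of only the 6 compared libraries gave 3 higher and 10 lower in FL. Replicate numbers did not meet the rule for pairing (every same-number correlation of deviations over 0.1). These ran from -0.21 to 0.28, and all 12 between limbs or genotypes at E10.5 were positive. As a hint from the data, not the design, every library correlated best with its own number in 1 of 12 pairs of groups (WT HL and FL at E10.5), and in 344 of 12399 genes (2.77%) the 4 E10.5 libraries numbered 3 lay on one side of the other 8. With numbers as a block, stage calls were 11 higher and 33 lower in HL and 24 and 17 in FL, no member was called elsewhere, and all-gene calls in E11.5 FL were 28 higher and 74 lower, against 53 and 141 without it.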

Other observations

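Mitochondrial ribosomal proteins, which build the separate ribosome of the mitochondrion, were read from the same WT stage fits. Of 77 tested, 38 were lower at E11.5 and 8 higher in HL, where 17.9% of all genes were lower and 23.0% higher, and 31 were lower and 8 higher in FL, where 16.4% were lower and 22.4% higher. In the mutant comparisons their medians were 0.03 in FL and 0.09 in HL at E11.5, and 0.08 in both limbs at E10.5.

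In Rpl30, replicate 3 was the highest library in all 4 groups at E10.5 (144 to 196 TPM, against 74.3 to 112 TPM in the other libraries) and the lowest in all 4 groups at E11.5 (128 to 155 TPM, against 194 to 252 TPM). In Rpl29, replicate 3 was the highest in all 4 groups at E10.5 (246 to 282 TPM, against 124 to 178 TPM). In Rps16, E10.5 FL WT replicate 1 had 63.3 TPM and the other libraries of that group 266 and 302 TPM.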
